A study of Mus musculus with 10 samples.

Results

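A set of 10 genes of the intestinal goblet cell were followed across sorted stem cells of the mouse intestine. They comprise the transcription factors Atoh1, Gfi1 and Spdef, and the mucus and secretory products Muc2, Fcgbp, Tff3, Clca1, Zg16, Agr2 and Spink4. The members were taken by gene symbol from the deposited tables, which hold 30295 gene rows, and all 10 were found. All 10 also passed the filter on low counts that left 15839 genes for testing, so none was lost to it. Cells had been sorted by flow cytometry from C57Bl/6 mice, with 1 library per animal. The groups were Hopx CR (n = 2) and Hopx AL (n = 2), reserve stem cells marked by Hopx-CreER::LSL-tdTomato, and Lgr5 CR (n = 3) and Lgr5 AL (n = 3), active stem cells marked by Lgr5-EGFP-IRES-CreER. CR stands for calorie restriction and AL for feeding at will. The 10 animals were processed in 5 isolations, each with 1 CR and 1 AL animal of the same line, isolations 1 to 3 for Lgr5 and 4 and 5 for Hopx. The line and the isolation therefore cannot be told apart. In the Hopx line a Cre fused to the estrogen receptor switches on tdTomato, and daughters of a recombined cell keep the label. In the Lgr5 line the EGFP is made from the Lgr5 locus itself. The sources used here do not state age, the extent of restriction or the time between induction and sorting.

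Goblet cells are the mucus-secreting cells of the intestinal epithelium. They arise from crypt progenitors that escape Notch signalling and switch on ATOH1, the basic helix-loop-helix factor needed for all secretory cells, after which GFI1 keeps cells off the enteroendocrine path towards goblet and Paneth fates and SPDEF drives goblet and Paneth maturation. Mature goblet cells package the gel-forming mucin MUC2 together with FCGBP, CLCA1, ZG16 and the trefoil peptide TFF3, while AGR2, a disulfide isomerase of the endoplasmic reticulum, is needed for MUC2 to be made. In bulk libraries of sorted cells, fewer cells of a type and less RNA per cell cannot be told apart, and this holds for every value below.

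Promoter sequence, from RefSeq on the build GRCm38.p6, was at hand for 6 of the 10 members, as 7 windows of 300 bases that run from 250 bases before to 50 bases after a transcript start. Tff3, Clca1, Zg16 and Spink4 had no entry in the table used. Shown are the windows of Muc2 and Fcgbp, products that were not called between the lines, and of Agr2, a product whose libraries did not overlap between the lines. All run 5′ to 3′ on the plus strand, at chr7:141690090-141690389, chr7:28070986-28071285 and chr12:35992675-35992974 in this order. Capitals mark the E-box CANNTG, the kind of site that ATOH1 and other basic helix-loop-helix factors bind.
Muc2: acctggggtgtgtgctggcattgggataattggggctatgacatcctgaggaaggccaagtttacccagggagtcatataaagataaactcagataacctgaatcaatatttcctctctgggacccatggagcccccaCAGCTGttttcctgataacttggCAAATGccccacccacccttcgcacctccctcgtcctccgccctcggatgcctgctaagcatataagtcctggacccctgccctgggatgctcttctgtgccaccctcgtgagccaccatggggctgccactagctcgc
Fcgbp: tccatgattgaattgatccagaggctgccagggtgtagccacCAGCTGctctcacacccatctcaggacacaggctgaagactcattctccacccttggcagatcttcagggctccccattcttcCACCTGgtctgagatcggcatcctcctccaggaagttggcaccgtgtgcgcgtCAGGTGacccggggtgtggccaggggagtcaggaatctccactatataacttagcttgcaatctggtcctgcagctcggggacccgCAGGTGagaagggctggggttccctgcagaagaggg
Agr2: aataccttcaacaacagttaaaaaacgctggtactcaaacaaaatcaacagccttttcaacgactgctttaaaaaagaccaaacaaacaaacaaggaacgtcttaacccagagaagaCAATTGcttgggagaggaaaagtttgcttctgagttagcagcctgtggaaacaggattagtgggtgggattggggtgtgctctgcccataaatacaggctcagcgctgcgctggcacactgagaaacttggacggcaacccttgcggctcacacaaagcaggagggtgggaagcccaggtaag
The Muc2 window held 2 E-boxes, the Fcgbp window 4 and the Agr2 window 1, against a mean of 1.39 over 32851 promoter windows, of which 72.3% held at least 1. The E-box with the core CAGCTG, found in 16.3% of windows, occurred in Muc2, 112 bases before the transcript start, and in Fcgbp, 208 bases before it, and in none of the other 5 windows. Each of the 2 Gfi1 windows held 1 E-box, and the windows of Atoh1 and Spdef held none. Muc2 also held 4 copies of GATAA, a word found in 25.4% of windows, which none of the other members' windows held. Both strands were searched, and CAGCTG counts among the E-boxes. These are matches of letters in a short window and say nothing of binding.

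The libraries held between 20.3 M (Lgr5 AL replicate 3) and 87.2 M (Hopx CR replicate 1) estimated counts, which sets the precision of the low members. Levels are given as CPM, counts per 1e+06 counts of the library with edgeR's TMM scaling, for comparing samples, and as TPM, which divides by transcript length, for comparing genes. Lgr5 mRNA averaged 114 ± 63 CPM in Hopx CR, 78.6 ± 12 in Hopx AL, 219 ± 62 in Lgr5 CR and 155 ± 91 in Lgr5 AL (SD). Hopx mRNA averaged 99.1 ± 24, 108 ± 4.0, 150 ± 4.4 and 127 ± 9.2 CPM in the same order, so the mean was not higher in the tdTomato-sorted groups. Eif2s3y, a Y-linked gene, stood at 0.045 to 0.125 TPM in Lgr5 AL replicate 3, Lgr5 CR replicate 3 and Hopx CR replicate 1 and at 8.91 to 30.5 TPM in the other 7 libraries, so the pair of isolation 4 also differed in it. Nothing in the labels says whether animals of a group shared a litter or cage.

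The row named Clca1 needs a caution. The deposited table holds all 6 of the older symbols Clca1 to Clca6 and none of the 6 symbols of this family that came later. In RefSeq the older symbol Clca1 belongs to Clca3a1, and the goblet product now called Clca1 (gob-5) carried the older symbol Clca3. The row named Clca1 stood at only 0.443 to 3.41 TPM, and the row named Clca3 at 106 to 525 TPM. Both are given below, the Clca1 row as the listed member and the Clca3 row as an addition chosen after its values had been seen. Which of the rows measures the goblet product was not settled by the files.

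By TPM the secreted peptides led the set in every library. Spink4, a Kazal-type protease inhibitor of goblet cells, had the highest TPM of the 10 members in all 10 libraries, from 1772 to 6192 TPM with a median of 3350. Tff3 came second in all 10, from 515 to 2892 TPM (median 1372). These levels are those of abundant transcripts, in cells sorted for stem cell reporters. Agr2 (387 to 1633 TPM, median 902) and Fcgbp, the IgG Fc binding protein that is cross-linked into mucus (284 to 872 TPM, median 619), filled places 3 to 5. Zg16, a lectin that binds gram-positive bacteria, ranked between 4 and 6 (93.1 to 690 TPM, median 412). Muc2, the mucin itself, ranked 5 or 6 in every library (38.0 to 161 TPM, median 101). The transcription factors were lower still. Atoh1 (20.3 to 55.4 TPM) and Spdef (13.0 to 36.9 TPM) held places 7 and 8, and Gfi1 (1.47 to 4.76 TPM) shared the last places with the Clca1 row. The ranges of Agr2, Fcgbp and Zg16 overlap, as do those of Atoh1 and Spdef, and their order changed between libraries. By TPM, Spink4 and Tff3 stood above the large mucus proteins Fcgbp and Muc2 in every library, and these above the 3 factors. This order depends on the length used for each gene. In CPM, Fcgbp stood above Spink4 in every library (4422 against 1506 in Hopx AL replicate 1). Relative to Tff3, the length used was 0.606 for Spink4, 27.4 for Fcgbp, 6.3 for Muc2 and 7.67 for Atoh1. Which transcript the Muc2 row covers was not checked.

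**Figure D1:**
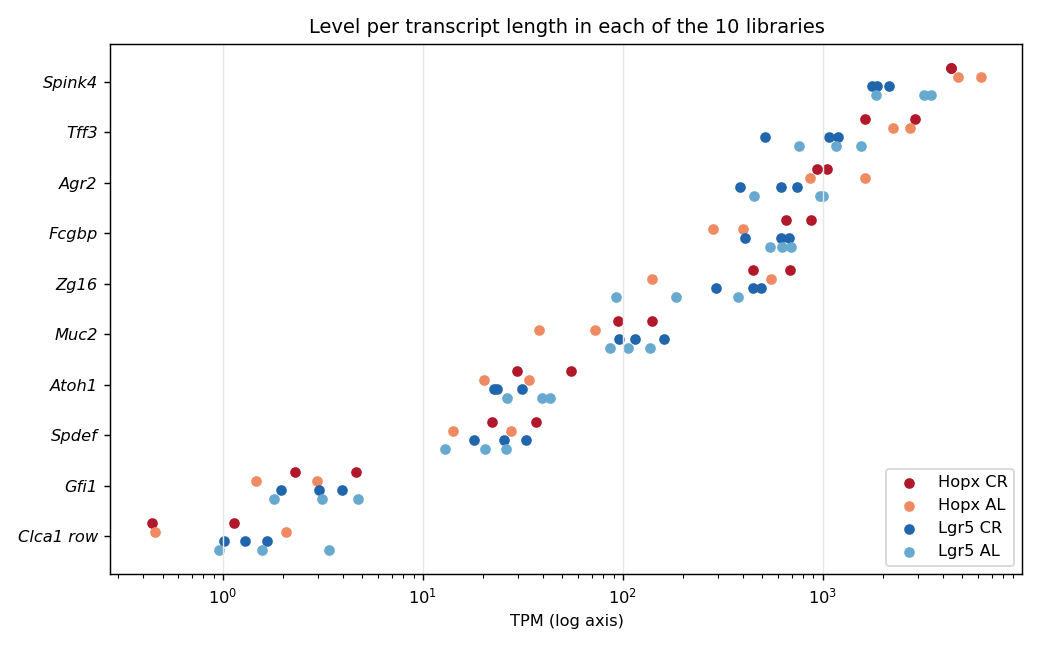
TPM (log axis) of the 10 members in each library, with a point per library coloured by group. Spink4 lies between 1772 and 6192 TPM and is the highest member in all 10 libraries, while Gfi1 and the Clca1 row lie lowest.

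Summed over the members, 0.732% and 0.9% of counts fell on them in the Hopx CR libraries, 0.79% and 0.477% in Hopx AL, 0.535%, 0.545% and 0.343% in Lgr5 CR, and 0.619%, 0.588% and 0.355% in Lgr5 AL. The libraries varied in a shared way. Lgr5 AL replicate 3, the shallowest library, was the lowest of all 10 in CPM for 7 of the 10 members, and Hopx AL replicate 1 was the highest for 5. Lgr5 AL replicate 3 also had the lowest summed Paneth (16473 CPM) and enterocyte (5944 CPM) marker genes of all 10. Its summed active stem cell genes were the highest (11318 CPM). The part of depth and of cell types in its member levels was not tested. The groups thus hold libraries that differ among themselves as much as groups differ for several members.

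The first comparison asked how reserve and active stem cells differ in goblet genes. With both diets weighted equally, Hopx cells held more of the small secreted products Spink4 and Tff3 than Lgr5 cells, and both passed the test across all genes. The mucin Muc2 and Fcgbp had smaller fold changes, with intervals that include 0. Of the 10 members 2 were thus called (adjusted p under 0.05), where 1.33% of all tested genes were called and 0.72% were called as higher. That background, 211 genes, came to between 22 (without Hopx AL replicate 1) and 293 (without Lgr5 AL replicate 1) genes with a single library left out. In all, 9 members had a fold change above 0, as did 50.5% of tested genes, with a median log2 fold change of 0.70 for the 10 members and of 0.0052 for all tested genes.

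**Figure D2:**
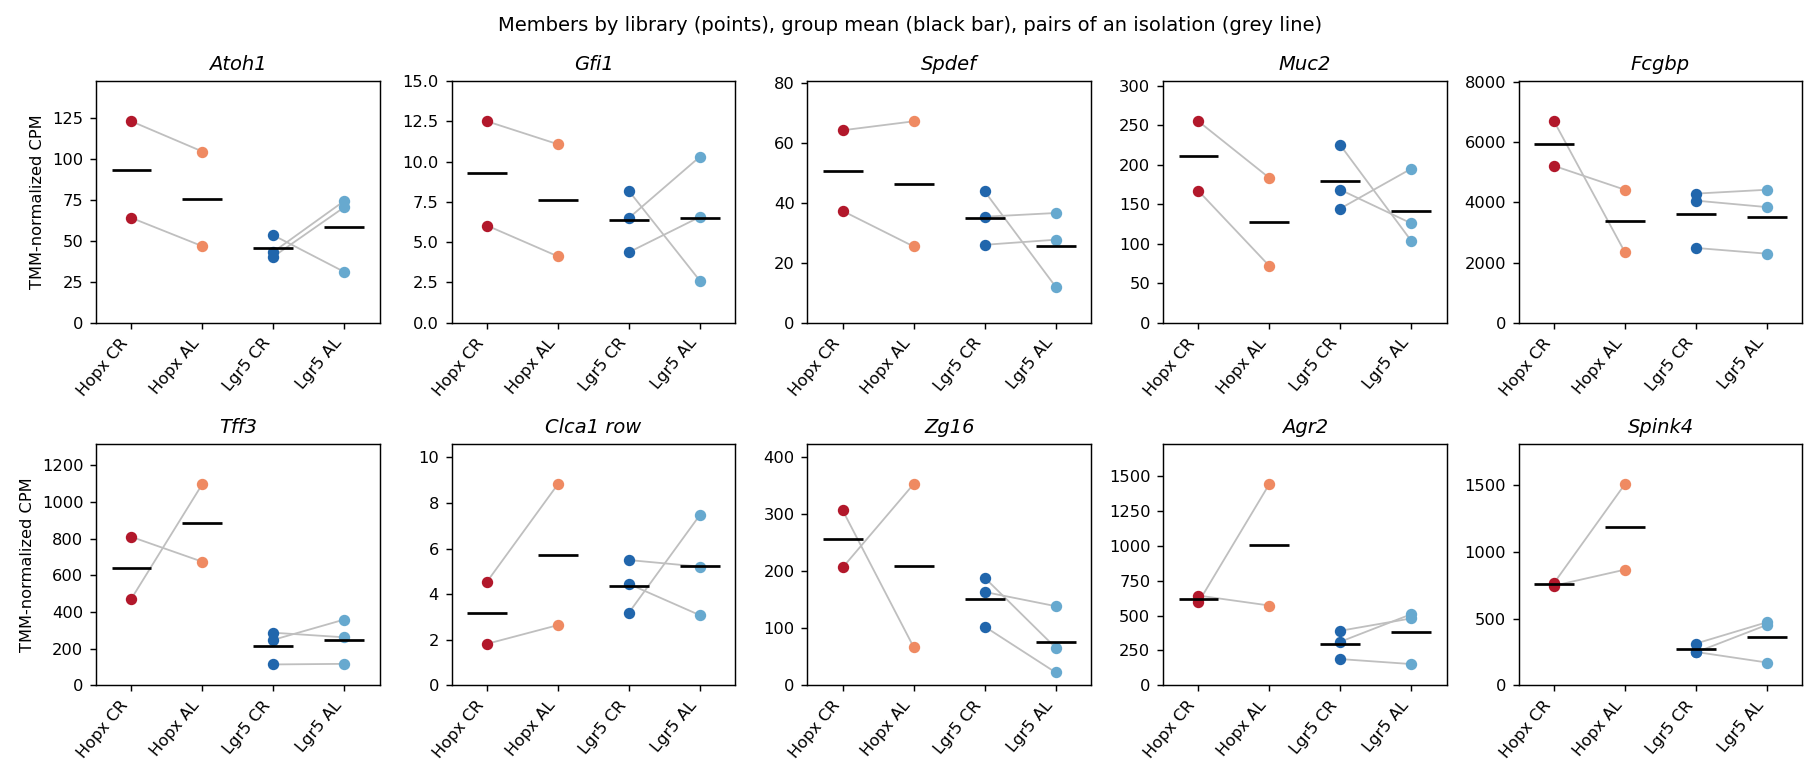
TMM-scaled CPM of each member in the 4 groups, on linear axes that start at 0, with a panel per member, a point per library, a black bar at the group mean and grey lines joining an isolation. Spink4, Tff3 and Agr2 lie higher in all 4 Hopx libraries than in any of the 6 Lgr5 libraries, and the other panels overlap between the lines.

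Spink4 stood at 766 and 746 CPM in Hopx CR and 1506 and 866 CPM in Hopx AL, against 247, 313 and 250 CPM in Lgr5 CR and 453, 473 and 171 CPM in Lgr5 AL. Every Hopx library lay above every Lgr5 library. The log2 fold change was 1.59 (SE 0.276, 95% interval 0.98 to 2.21), with an adjusted p of 0.0344 by edgeR's quasi-likelihood test, from means of 971 CPM in Hopx and 318 CPM in Lgr5 cells. Tff3, the trefoil peptide of mucosal repair, stood at 473 and 809 CPM in Hopx CR and 1097 and 674 CPM in Hopx AL, against 248, 287 and 114 CPM in Lgr5 CR and 359, 262 and 118 CPM in Lgr5 AL. Here too all 4 Hopx libraries lay above all 6 Lgr5 libraries. Its log2 fold change was 1.71 (SE 0.348, 95% interval 0.93 to 2.48, edgeR adjusted p = 0.0494), close under the threshold. Agr2 stood at 594 and 643 CPM in Hopx CR and 1440 and 571 CPM in Hopx AL, against 312, 391 and 188 CPM in Lgr5 CR and 509, 479 and 153 CPM in Lgr5 AL. The lines did not overlap for Agr2 either, but it did not pass (log2 fold change 1.23, SE 0.367, 95% interval 0.41 to 2.05, edgeR adjusted p = 0.114). Of all tested genes 4.8% did not overlap between the lines, 2.87% with Hopx higher, against these 3 of 10 members. The calls rest on few animals. Without any single library Spink4 had a log2 fold change of 1.35 to 1.77 and stayed called without Lgr5 AL replicate 1, Lgr5 AL replicate 3 or Hopx AL replicate 2, and its call ended without any single one of the other 7 (adjusted p from 0.0641 without Lgr5 AL replicate 2 to 0.156 without Hopx AL replicate 1). Tff3 had 1.49 to 1.89 and stayed called only without Lgr5 AL replicate 1 (adjusted p up to 0.201, without Hopx AL replicate 1).

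**Figure D3:**
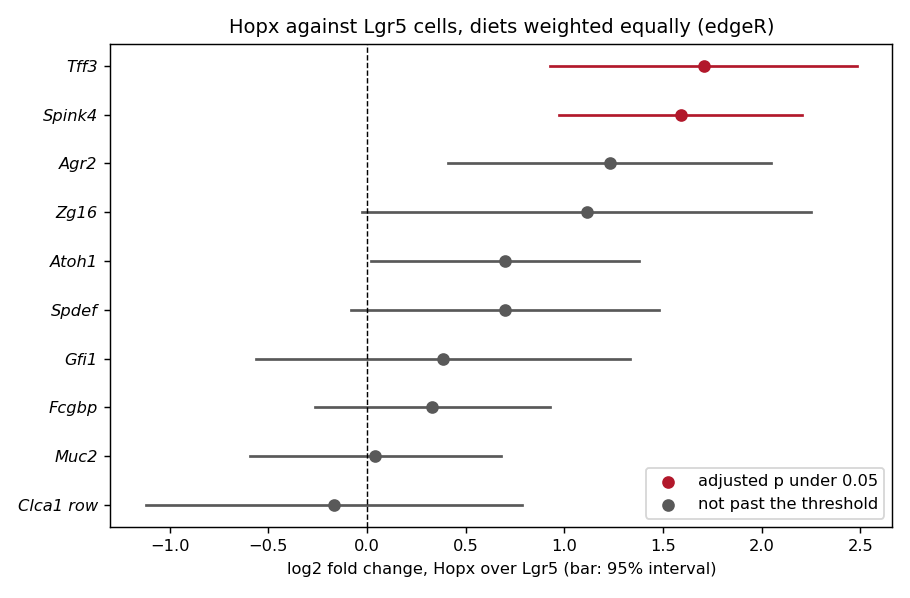
Log2 fold change of each member in Hopx over Lgr5 cells with diets weighted equally (points) and its 95% interval (bars) by edgeR, with called members in red. Tff3 at 1.71 and Spink4 at 1.59 are called, and the intervals of Muc2, Fcgbp, Gfi1, Spdef, Zg16 and the Clca1 row include 0.

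The mucus scaffold gave another picture. Muc2 stood at 255 and 167 CPM in Hopx CR and 183 and 71.8 CPM in Hopx AL, against 168, 145 and 225 CPM in Lgr5 CR and 126, 195 and 104 CPM in Lgr5 AL. The lines overlapped fully, with a log2 fold change of 0.04 (SE 0.285, 95% interval -0.59 to 0.68, edgeR adjusted p = 0.953). Fcgbp stood at 5218 and 6700 CPM in Hopx CR and 4422 and 2338 CPM in Hopx AL, against 4295, 4062 and 2487 CPM in Lgr5 CR and 4424, 3846 and 2296 CPM in Lgr5 AL. It overlapped too (0.33, SE 0.268, 95% interval -0.27 to 0.93, edgeR adjusted p = 0.54). These intervals leave room for differences of either sign, smaller than that seen for Spink4. On the TPM scale Muc2 and Fcgbp were lower in Hopx cells, at -0.55 and -0.21 with a pseudocount of 1, against a median of -0.442 over all genes there, so relative to that median Muc2 lay slightly lower and Fcgbp higher. Spink4 and Tff3 stayed higher on that scale, at 1.09 and 1.24. Zg16 stood at 206 and 306 CPM in Hopx CR and 352 and 66.9 CPM in Hopx AL, against 164, 189 and 103 CPM in Lgr5 CR and 139, 66.0 and 22.7 CPM in Lgr5 AL. Its lowest Hopx library lay among the lower Lgr5 libraries, and the difference did not pass (1.11, SE 0.511, edgeR adjusted p = 0.266).

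The transcription factors did not pass either. Atoh1 stood at 123 and 64.0 CPM in Hopx CR and 104 and 46.7 CPM in Hopx AL, against 40.3, 43.2 and 53.4 CPM in Lgr5 CR and 70.5, 74.3 and 31.0 CPM in Lgr5 AL. Only the replicate 1 libraries of the Hopx groups, both of isolation 4, lay above all Lgr5 libraries (log2 fold change 0.70, SE 0.305, 95% interval 0.02 to 1.38, edgeR adjusted p = 0.244). Spdef stood at 64.3 and 37.3 CPM in Hopx CR and 67.3 and 25.5 CPM in Hopx AL, against 35.4, 26.0 and 43.9 CPM in Lgr5 CR and 36.6, 27.7 and 12.0 CPM in Lgr5 AL. It showed the same split between the Hopx isolations (0.70, SE 0.35, edgeR adjusted p = 0.307). Gfi1 ran from 4.12 to 12.5 CPM in Hopx and from 2.60 to 10.3 CPM in Lgr5 libraries (0.39, SE 0.425, edgeR adjusted p = 0.668). Exons of Gfi1 overlap those of an antisense gene, A430072P03Rik, and the kit does not mark strand. The Clca1 row ran from 1.82 to 8.83 CPM in Hopx and from 3.08 to 7.48 CPM in Lgr5 libraries (-0.17, edgeR adjusted p = 0.869). The Clca3 row ran from 455 to 860 CPM in Hopx and from 327 to 1275 CPM in Lgr5 libraries (-0.06, edgeR adjusted p = 0.942), and edgeR called neither row.

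Within a single diet no member was called, although the same products led. Under AL, Spink4 differed by 1.70 (SE 0.391, edgeR adjusted p = 0.0958), Tff3 by 1.85 (SE 0.494, adjusted p = 0.119) and Agr2 by 1.40 (SE 0.519, adjusted p = 0.203) between Hopx AL and Lgr5 AL. For these 3 of 10 members all Hopx AL libraries lay above all Lgr5 AL libraries, as for 18.8% of tested genes. Of the members 0 were called by edgeR and 3 had an unadjusted p under 0.05, where 0.0189% and 17.7% of all tested genes did. DESeq2 called 2 members, Spink4 (1.65, adjusted p = 0.00271) and Tff3 (1.80, adjusted p = 0.0101), and so did edgeR with no filter on low counts. Over all genes, DESeq2 called 1135 and edgeR with no filter 194 in this comparison. On log2(TPM + 1), limma called 3 members, Spink4 higher (0.99) and Muc2 and Fcgbp lower (-1.03 and -0.87), against a median of -0.625 over all genes. In all, limma called 3745 genes there. By edgeR Muc2 and Fcgbp differed by -0.15 (adjusted p = 0.886) and -0.06 (adjusted p = 0.954) in this comparison. The added Clca3 row was also called lower by limma on log2(TPM + 1), at -1.39 (adjusted p = 0.028), where edgeR gave -0.60 (adjusted p = 0.519). With no filter, limma called 2390 genes but 0 members, and did not call the Clca3 row (adjusted p = 0.115). Under CR, edgeR again called 0 members, where 0.0189% of tested genes were called, and 3 had an unadjusted p under 0.05 (background 6.3%). Spink4 differed by 1.48 (SE 0.39, edgeR adjusted p = 0.49), Tff3 by 1.57 (SE 0.492, adjusted p = 0.638) and Atoh1 by 1.03 (SE 0.43, adjusted p = 0.749) between Hopx CR and Lgr5 CR. Spink4 was the only member called there by DESeq2 (1.48, adjusted p = 0.0368), which called 151 genes in all. For 6 of the 10 members, Spink4, Tff3, Agr2, Atoh1, Zg16 and Fcgbp, both Hopx CR libraries lay above all Lgr5 CR libraries, as for 11.7% of tested genes. Fcgbp, with 5218 and 6700 CPM in Hopx CR and at most 4295 CPM in Lgr5 CR, was among them without passing the test (0.72, SE 0.377, edgeR adjusted p = 0.852).

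Other secretory genes were described beside the members. Of 19 tested genes of a further goblet list 17 had a higher fitted value in Hopx cells (median log2 fold change 0.65), and 3 were called by edgeR. Rep15 (1.33, adjusted p = 0.0436) and Klk1, a kallikrein protease (1.14, adjusted p = 0.0486), rose, and Nlrp6, an innate sensor linked to goblet secretion, fell by 0.73 on the log2 scale (adjusted p = 0.0447). Enzymes of mucin glycosylation were higher for 15 of 20 (median 0.21), with 0 called by edgeR. The nearest was C1galt1c1, the chaperone of the core O-glycan synthase (0.68, adjusted p = 0.0664). Of 18 secretory regulators 11 were higher (median 0.16) and 1 was called, Neurog3, the factor of enteroendocrine fate (1.62, adjusted p = 0.0399). Hes1, the Notch target that represses Atoh1, differed by -0.91 (adjusted p = 0.0651).

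Markers of some other cell types moved with the line. All 15 enteroendocrine genes were higher in Hopx cells (median 1.58), with 7 called by edgeR. Their summed level was 3312 to 8517 CPM in Hopx CR, 8665 to 8826 CPM in Hopx AL, 830 to 4521 CPM in Lgr5 CR and 1529 to 2949 CPM in Lgr5 AL. All 12 Paneth genes were higher too (median 0.86) with 0 called, and their sum was 63545 to 100308, 84483 to 209362, 49217 to 67685 and 16473 to 66451 CPM in the same order of groups. Hopx AL replicate 1, which held the highest Spink4, Tff3, Agr2 and Zg16, held 109220 CPM of Lyz1, the lysozyme of Paneth cells. Lgr5 AL replicate 3, lowest for 7 members, held 5568 CPM of Lyz1. Not all libraries followed this order. Hopx CR replicate 2 had the highest summed CPM of members (9483) and the lowest Paneth sum of the Hopx libraries (63545). Lgr5 CR replicate 3 had the highest Paneth sum of the Lgr5 libraries (67685) and the lowest Tff3 of any library (114 CPM). All 12 tuft cell genes were higher as well over both diets (median 0.60, 0 called by edgeR), with a sum of 305 to 559 CPM in Hopx CR, 240 to 637 CPM in Hopx AL, 106 to 181 CPM in Lgr5 CR and 307 to 742 CPM in Lgr5 AL. Between Hopx CR and Lgr5 CR all 12 were higher (median 1.64), with 0 called and 11 at an unadjusted p under 0.05 (background 6.3%). Between Hopx AL and Lgr5 AL only 5 of 12 were higher (median -0.06), with 0 called and 0 at that p (background 17.7%). The median tuft difference was thus larger between the CR groups. The diet effect in Hopx minus that in Lgr5 cells was above 0 for all 12 tuft genes (median 1.55). By edgeR 0 of them were called for it, and 6 had an unadjusted p under 0.05 (background 4.7%). Of 14 immune cell genes 2 were higher in Hopx cells (median -0.39), with 0 called. Enterocyte genes were higher for 4 of 13 (median -0.33) and genes of stroma and endothelium for 3 of 6 (median -0.01), with 0 called by edgeR in either list. None of the 12 active stem cell genes was higher in Hopx cells (median -0.94), and 4 were called lower. The part of these cell types in the members' difference was not tested.

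The second question was what calorie restriction does to goblet genes. No member was called in either line, and no member moved the same way in all 5 isolations. Zg16, Muc2 and Fcgbp were higher and Spink4 lower in the CR animal of 4 of the 5 isolations. In Lgr5 cells, CR against AL, 0 members were called by edgeR (0.0189% of tested genes), 0 had an unadjusted p under 0.05 (background 9.78%) and 0 were called by DESeq2. The largest value was that of Zg16, which had 164, 189 and 103 CPM in Lgr5 CR against 139, 66.0 and 22.7 CPM in Lgr5 AL. The groups overlapped, since Lgr5 AL replicate 1 lay above Lgr5 CR replicate 3 (log2 fold change 1.00, SE 0.662, edgeR adjusted p = 0.663). Spdef differed by 0.46 (SE 0.45, adjusted p = 0.782) and Muc2 by 0.34 (SE 0.361, adjusted p = 0.806), while Spink4 (-0.44), Atoh1 (-0.36) and Agr2 (-0.36) lay on the other side. The Clca3 row, added after its values were seen, differed by -0.90 (SE 0.393, edgeR adjusted p = 0.503).

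In Hopx cells, CR against AL, 0 members were called by edgeR (0.0126% of tested genes) and 0 had an unadjusted p under 0.05 (background 8.52%), and DESeq2 called 0. Fcgbp did not overlap, with 5218 and 6700 CPM in Hopx CR against 4422 and 2338 CPM in Hopx AL (0.82, SE 0.42, adjusted p = 0.617). Spink4 did not overlap in the other direction, with 766 and 746 CPM in Hopx CR against 1506 and 866 CPM in Hopx AL (-0.65, SE 0.435, adjusted p = 0.70). With 2 animals a group, 42.7% of all tested genes did not overlap, against these 2 of 10. Muc2 differed by 0.73 (SE 0.444, adjusted p = 0.675) and Agr2 by -0.70 (SE 0.579, adjusted p = 0.755). The difference between the diet effects of the lines was called for 0 members by edgeR and by DESeq2 and for 0.00631% of tested genes, with 0 members at an unadjusted p under 0.05, where 4.7% of tested genes stood. Its largest values were 0.78 for Fcgbp, -0.71 for Zg16 and 0.67 for Atoh1, each with an adjusted p of 1.

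The labels also allow each isolation to be taken as a pair. In the fit over the 5 pairs, 0 members were called by edgeR (0.297% of tested genes, 47 genes, and 0 to 20 genes with any single library left out), and 2 had an unadjusted p under 0.05, where 16.2% of tested genes did. Zg16 differed by 1.10 (SE 0.451, 95% interval 0.05 to 2.14, adjusted p = 0.288). Its CR minus AL log2 differences were 0.24, 1.51 and 2.18 in isolations 1 to 3 of the Lgr5 line and -0.77 and 2.19 in isolations 4 and 5 of the Hopx line. Isolation 4 alone thus went the other way, and it is the pair whose AL library held the most Zg16. DESeq2 called Zg16 (1.07, adjusted p = 0.0468), its only member among 1079 genes called, and limma on log2(TPM + 1) did not (1.06, adjusted p = 0.0678). Muc2 differed by 0.56 (SE 0.234, 95% interval 0.02 to 1.10, edgeR adjusted p = 0.293), with 0.42, -0.43 and 1.12 in isolations 1 to 3 and 0.48 and 1.22 in isolations 4 and 5. Isolation 2 was the exception for Muc2. Spink4 differed by -0.43 (SE 0.226, 95% interval -0.95 to 0.10, adjusted p = 0.399), with -0.87, -0.59 and 0.55 in isolations 1 to 3 and -0.98 and -0.22 in isolations 4 and 5. Here isolation 3 stood alone, the pair that holds the shallow library.

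**Figure D4:**
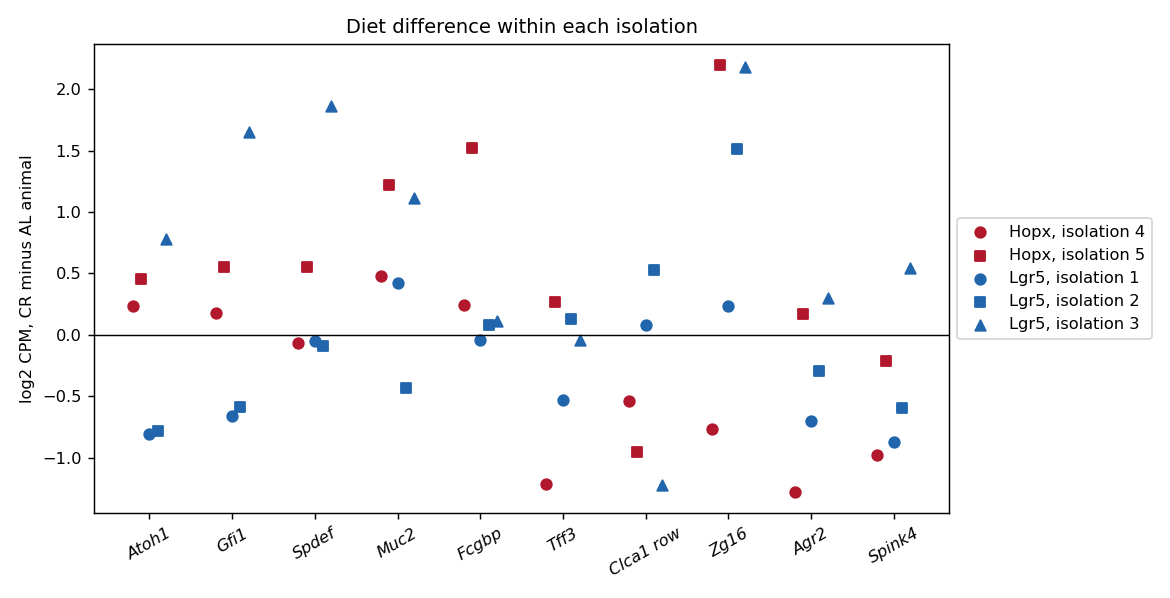
CR minus AL difference in log2 CPM of each member within each of the 5 isolations, a point per isolation, with Lgr5 and Hopx isolations in separate colours. No member lies on a single side of 0 in all 5 isolations, and Zg16 runs from -0.77 to 2.19.

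Fcgbp lay close to 0 in the Lgr5 isolations (-0.04, 0.08 and 0.12) and at 0.24 and 1.52 in the Hopx isolations (pair fit 0.37, SE 0.248, edgeR adjusted p = 0.497). Agr2 lay at -0.71, -0.29, 0.30, -1.28 and 0.17 and Tff3 at -0.53, 0.13, -0.04, -1.22 and 0.26 in isolations 1 to 5. These secreted products thus shared their lowest difference in isolation 4, whose AL library held the most of both in CPM (1440 for Agr2 and 1097 for Tff3). The factors Atoh1 (-0.81, -0.78, 0.78, 0.23 and 0.45), Gfi1 (-0.66, -0.58, 1.65, 0.17 and 0.55) and Spdef (-0.05, -0.09, 1.87, -0.07 and 0.55) had their highest difference in isolation 3. Its AL library held the lowest AL level of each (31.0, 2.60 and 12.0 CPM). The CR level itself was highest in isolation 4 for each (123, 12.5 and 64.3 CPM). Counted by isolation, 3, 4, 8, 4 and 8 of the 10 members were higher in the CR animal of isolations 1 to 5, so the direction of the set differed between pairs of animals under the same contrast. No member had a single sign in all 5 isolations, where 15.8% of all tested genes did. Over the pairs, 16.2% of all tested genes had an unadjusted p under 0.05 and 0.297% were called by edgeR. Mucin glycosylation genes were higher under CR for 16 of 20 (median 0.14), with 0 called and 4 at that p. Gcnt4 led them (0.73, edgeR adjusted p = 0.0692). All 13 enterocyte genes were higher (median 1.18, 1 called) and 3 of 12 Paneth genes (median -0.15, with Mptx1 called lower). Of the tuft cell genes 0 of 12 were higher (median -1.04, 6 at an unadjusted p under 0.05), of the immune genes 0 of 14 (median -0.75, 3 at that p) and of the enteroendocrine genes 4 of 15 (median -0.42, 4 at that p, all lower), with 0 called by edgeR in each of these lists. In Lgr5 CR against Lgr5 AL, 0 of 12 tuft genes were higher (median -1.82, 0 called, 11 at an unadjusted p under 0.05, background 9.78%). In Hopx CR against Hopx AL, 0 of 14 immune genes were higher (median -1.82, 0 called, 2 at an unadjusted p under 0.05, background 8.52%). The part of these cells in the members' values was not tested.

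Ratios of members within a library do not depend on how libraries are scaled, though their level depends on the length used for each gene. The TPM of Spink4 over that of Muc2 was 31.3 and 46.5 in Hopx CR and 85.5 and 125 in Hopx AL, against 15.3, 22.6 and 11.6 in Lgr5 CR and 37.5, 25.2 and 17.2 in Lgr5 AL. The ratio was lower in the CR animal of all 5 isolations, and Hopx lay above Lgr5 within each diet. Of the 45 ratios between members, 8 had the same direction in all 5 isolations. Of single tested genes 15.8% did, and the share among ratios of other genes was not worked out. Under CR Muc2, Zg16, Spdef and Gfi1 were higher relative to Spink4, Zg16 and Spdef were higher relative to Agr2, Zg16 was higher relative to Tff3, and Muc2 was higher relative to Atoh1. Only Fcgbp over Tff3 separated the lines in all libraries, at 0.126 to 0.402 in Hopx and 0.449 to 0.793 in Lgr5 cells, where 4.8% of single tested genes did. These ratios were picked after their values had been seen, so no test is attached to them, and their counts are not read as particular to the members.

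**Figure D5:**
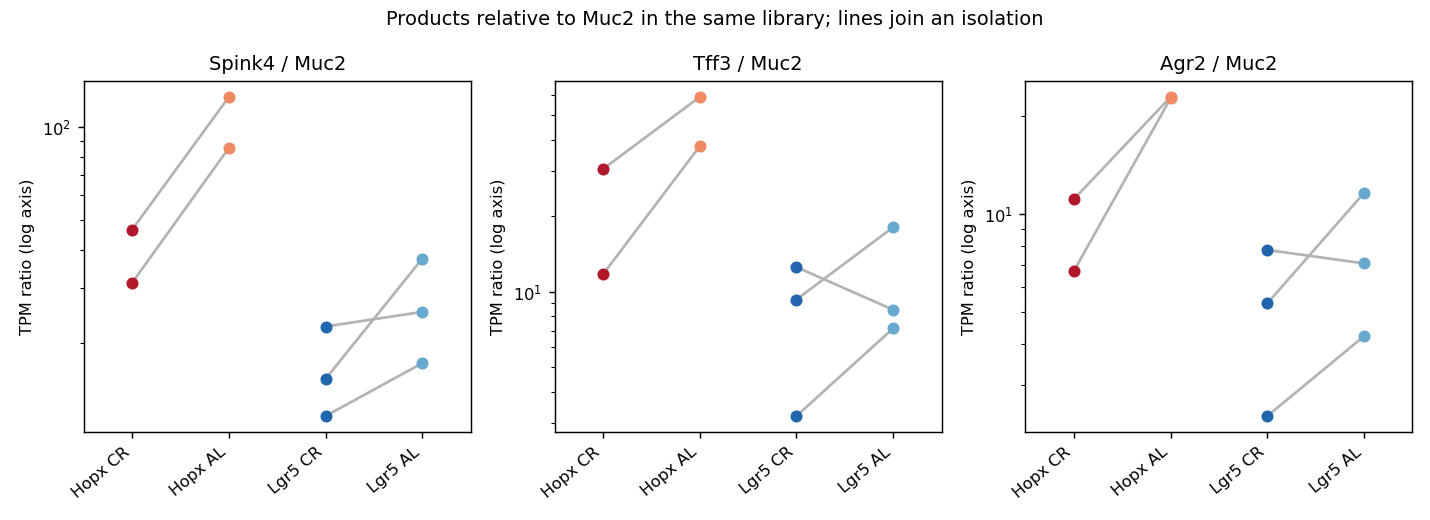
TPM of Spink4, Tff3 and Agr2 divided by the TPM of Muc2 in the same library (log axes), with lines joining the CR and AL animals of an isolation. Spink4 over Muc2 is lower in the CR animal of all 5 isolations, while Tff3 and Agr2 over Muc2 are lower in 4 of 5.

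The members did not vary as a single block across the 10 libraries. Spink4, Tff3 and Agr2 went together, with Pearson correlations of log2 CPM of 0.937 to 0.947 between them. The factors also went together, with 0.93 for Gfi1 and Spdef, 0.866 for Atoh1 and Gfi1 and 0.833 for Atoh1 and Spdef. With these 3 products the factors stood at 0.377 (Gfi1 with Tff3) to 0.755 (Atoh1 with Spink4), so the groups were not separate. Muc2 followed neither product, at -0.063 with Tff3 and 0.0692 with Spink4, and was nearer to the factors (0.598 with Atoh1, 0.687 with Gfi1 and 0.671 with Spdef). The Clca1 row ran against Muc2, at -0.91. Of the 45 pairs 35 were positive, with a median of 0.58, and no such median was taken for pairs of other genes. Of the 10 negative pairs, all but Muc2 with Tff3 involved the Clca1 row, which is low and of uncertain identity. That row was negative with every other member, from -0.168 with Tff3 to -0.91 with Muc2. The points share libraries, scaling and depth, so these values describe the 10 libraries and carry no p.

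Outside the set, the genes whose log2 CPM ran closest to Muc2 among 9943 expressed genes were Emc3 (r = 0.959), a subunit of a membrane protein insertase of the endoplasmic reticulum, Qpctl (0.932), a glutaminyl cyclase of the Golgi, Aars (0.919), the alanyl-tRNA synthetase, Gpatch2l (0.915) and Ssh3 (0.911), a cofilin phosphatase. Those closest to Atoh1 were Creb3l1 (0.919), a membrane-bound transcription factor of secretory cells, Agt (0.909), the angiotensinogen gene, Hgfac (0.907), a serine protease that activates hepatocyte growth factor, Slc35a2 (0.898), the UDP-galactose transporter of the Golgi, and Ccl9 (0.894), a chemokine. Of these 10 genes, Hgfac and Ccl9 were on the further goblet list and Creb3l1 on the list of secretory regulators. The ranking is over the 10 libraries and has no test.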

How the data were processed

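Libraries of 10 animals were made, per the labels' protocols, from TRIzol LS RNA with the SMART-Seq v4 kit and Nextera XT and read on a NextSeq 500, without molecular identifiers or strand. The authors deposited estimated counts and TPM per gene symbol. Per the submitters' processing notes, kallisto and edgeR were used with GRCh38, although that build is human and the symbols are those of mouse. For all 14475 genes with a count in every library the ratio of count to TPM was a gene constant times a library constant (tolerance 1e-04), so the deposited estimated counts use a single length per gene. They were rounded. Genes were filtered by filterByExpr (minimum count 10), scaled by TMM and fitted with edgeR 4.0.16 (R 4.3.3, glmQLFit) with a mean for each of 4 groups over 10 libraries, and once with isolation as a block plus diet. Two-sided p-values were adjusted by Benjamini-Hochberg over 15839 genes (threshold 0.05). The standard error is the size of the log2 fold change over the square root of F. Residual correlations within an isolation were 0.0492 to 0.227, and the labels give the pairing. Alternatives were RLE, DESeq2 1.42.0, other filters, limma 3.58.1 on log2 TPM and leaving out each library. Promoter words were counted in RefSeq windows, and exon overlap comes from GENCODE M21. The members and gene lists were chosen with earlier results of these data known. All members are named, and of each other list up to 4 genes with the smallest p. Where nothing says that animals of a group were independent, p-values measure the spread between these samples.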

Additional observations from a re-analysis of the deposited data

How the results depend on the processing

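By edgeR, Spink4 and Tff3 were called in Hopx against Lgr5 cells over both diets, and none of the other scalings, filters and tools tried turned either direction. With RLE size factors, and with limma on log2(TPM + 1) with no filter, 1 member was called in place of 2, since Tff3 missed the threshold (adjusted p = 0.0568 and 0.0594). RLE called 212 genes in all in this comparison, and limma with no filter called 2106. DESeq2 and edgeR with no filter also called Agr2 there (adjusted p = 0.0193 and 0.0434), where they called 1394 and 465 genes in all. In Hopx AL against Lgr5 AL, 0 members were called by edgeR, 2 by DESeq2, 2 with no filter and 3 by limma on log2(TPM + 1) or log2(TPM + 0.1). Over all genes these settings called 3, 1135, 194, 3745 and 3886 there, in the same order. DESeq2 called 1 in Hopx CR against Lgr5 CR (Spink4, among 151 genes called) and 1 in the isolation pairs (Zg16), where edgeR called 0. Counts over all genes moved more. For CR against AL, DESeq2 called 365 genes in Lgr5 cells, 140 in Hopx cells and 1079 over the pairs, against 3, 2 and 47 by edgeR. Between the lines it called 1394 against 211, and limma on log2(TPM + 1) called 3790. The cause was not tested.

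Isolation is a shared batch in the labels, so the fits with the replicate block pair its animals. With the block, edgeR called 0 members and 0 genes for CR against AL in Lgr5 cells, in Hopx cells and for their difference. Without the block, the comparison over all pairs called 0 members and 21 genes, against 47 with it. DESeq2 with the replicate block, added after seeing the data, called 0 members in each of the 3 diet comparisons, and 699, 312 and 79 genes, where edgeR with the block called 0. Gfi1 in Lgr5 CR against AL stood at -0.03, at 0.092 with the block and at 0.057 by DESeq2 with the block. The numbers shared across lines mark no isolation and paired nothing.

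On the TPM scale the median of all genes shifted by -0.442 between the lines, by -0.625 under AL and by 0.38 for the difference between the diet effects, and some values changed sign against edgeR, none of them called on either scale. With pseudocounts of 1 (filtered or not) and 0.1, Hopx against Lgr5 over both diets gave Muc2 -0.55 and -0.56, Fcgbp -0.21 with each, and Gfi1 -0.11 and -0.16. Hopx AL against Lgr5 AL gave Atoh1 -0.42 and -0.44, Gfi1 -0.38 and -0.50, and the Clca1 row -0.41 and -0.74. Hopx CR against Lgr5 CR gave Muc2 -0.073 with each, and Lgr5 CR against AL gave Fcgbp -0.16 with each. The difference between diet effects gave Agr2 0.17, Tff3 0.16 and Spink4 0.20 with each, Spdef 0.15 and 0.16, and the Clca1 row 0.017 with a pseudocount of 1.

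With any single library left out, edgeR called 0 to 2 members between the lines over both diets and 0 in each of the other 6 comparisons. Counts over all genes then ran from 0 to 20 for the pairs (47 with all libraries), 22 to 293 between the lines (211), 0 to 109 for Lgr5 CR against AL (3), 1 to 3 for Hopx CR against AL (2), 1 to 2 for the difference between diet effects (1), 0 to 110 for Hopx AL against Lgr5 AL (3) and 1 to 7 for Hopx CR against Lgr5 CR (3). Where 1 arm then held 1 library, it was assumed to vary like the other groups. Of the values for single genes, these changed sign without some library, and none of them was called. For Lgr5 CR against Lgr5 AL the ranges were Fcgbp -0.19 to 0.25, Gfi1 -0.41 to 0.47, Tff3 -0.52 to 0.19 and Clca1 row -0.53 to 0.076. In Hopx CR against Hopx AL the ranges were Agr2 -1.22 to 0.12, Atoh1 -0.24 to 1.01, Gfi1 -0.34 to 1.18, Spdef -0.41 to 1.01, Clca1 row -1.64 to 0.26, Zg16 -0.46 to 1.95 and Clca3 row -0.19 to 0.74. For the difference between the diet effects the ranges were Gfi1 -0.31 to 1.24, Spdef -0.87 to 0.58, Tff3 -0.72 to 0.15, Agr2 -0.87 to 0.51, Spink4 -0.57 to 0.28, Zg16 -1.48 to 0.98, Muc2 -0.15 to 1.25 and Clca1 row -1.39 to 0.52. In Hopx AL against Lgr5 AL the ranges were Fcgbp -0.62 to 0.34, Muc2 -1.01 to 0.38, Clca1 row -0.98 to 0.72, Gfi1 -0.69 to 0.78, Atoh1 -0.36 to 0.84, Spdef -0.034 to 1.41 and Zg16 -0.22 to 2.24. For Hopx CR against Lgr5 CR the ranges were Gfi1 -0.079 to 0.98, Muc2 -0.10 to 0.51 and Clca1 row -1.26 to 0.057. In Hopx against Lgr5 over both diets the ranges were Muc2 -0.38 to 0.31, Clca3 row -0.33 to 0.17, Gfi1 -0.070 to 0.66 and Clca1 row -0.72 to 0.13. For the 5 isolation pairs the ranges were Atoh1 -0.22 to 0.18 and Gfi1 -0.13 to 0.44.

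With 2 or 3 animals a group and a biological coefficient of variation of 0.389, diet effects within a line had standard errors of 0.34 to 0.80 in log2 units, which limits what could be called. Counting error adds little for the products and more for Gfi1 and the Clca1 row, whose lowest libraries held 63.7 and 133 estimated counts.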
